A study of Oryza sativa with 18 samples.

Results

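Roots of rice (Oryza sativa cv. Nipponbare) taken 14 days after a short auxin treatment were compared with mock-treated roots of the same age. The comparison rested on 6 of the 18 RNA-seq libraries of the study, 3 from plants soaked in 2,4-D and 3 from mock plants, chosen by their labels, and it covered the transcripts of the count table. Plants were 7 days old at treatment and wild type, and were soaked for 1 h in 50 µM 2,4-dichlorophenoxyacetic acid (2,4-D), a synthetic auxin, or in the same solution without it. They then grew on Fahraeus medium low in nitrogen until 14 days post-treatment (dpt). From the treated plants, only roots that bore nodule-like structures (NLS) were used for RNA, while mock roots bore none, so that the treated samples differ from mock both in 2,4-D and in the choice of root tissue, and these cannot be told apart. The other 12 libraries cover both treatments at 1 and 7 dpt. Whole-root RNA does not separate fewer cells of a type from less RNA per cell, which holds for each level below.

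Auxin acts in plants through nuclear receptors that release response genes from repression. Among the fast targets are GH3 enzymes, which attach amino acids to auxin, and factors that start lateral root primordia. NLS are swellings on the root that form without rhizobia and hold dividing cells. The study describes them as having a diffuse meristem and much vascular differentiation. As root tissues mature, xylem vessels deposit cellulose and lignin, and the endodermis and exodermis deposit Casparian strips and suberin. The results below follow these groups, from auxin response and developmental factors through cell wall enzymes to transport and signaling.

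The libraries held 13577674 to 17582306 counts for mock roots (median 16139972) and 12316959 to 18057748 for 2,4-D roots (median 12544539). Of the 66860 rows of the table, 24647 had no count in any of the 6 libraries, 28571 had counts but stayed under the filter of 10 CPM (counts scaled to a common library total) in at least 2 libraries, and 13642 transcripts of 13572 loci were tested. A transcript could thus enter the test through the libraries of 1 treatment alone. The tested transcripts held 96.51 to 96.93% of the counts. Log2 CPM correlated at 0.807 to 0.909 among mock libraries and at 0.852 to 0.930 among 2,4-D libraries, against 0.636 to 0.835 between the treatments, across transcripts that are not independent replicates. Along the first principal component (54.6% of the variance) the treatments lay apart. The second held 26.1% and placed mock replicate 2 at -64.2, with 2,4-D replicates 2 and 1 at -37.9 and -19.8, and mock replicates 1 and 3 and 2,4-D replicate 3 at 31.6, 42.6 and 47.8.

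**Figure D1:**
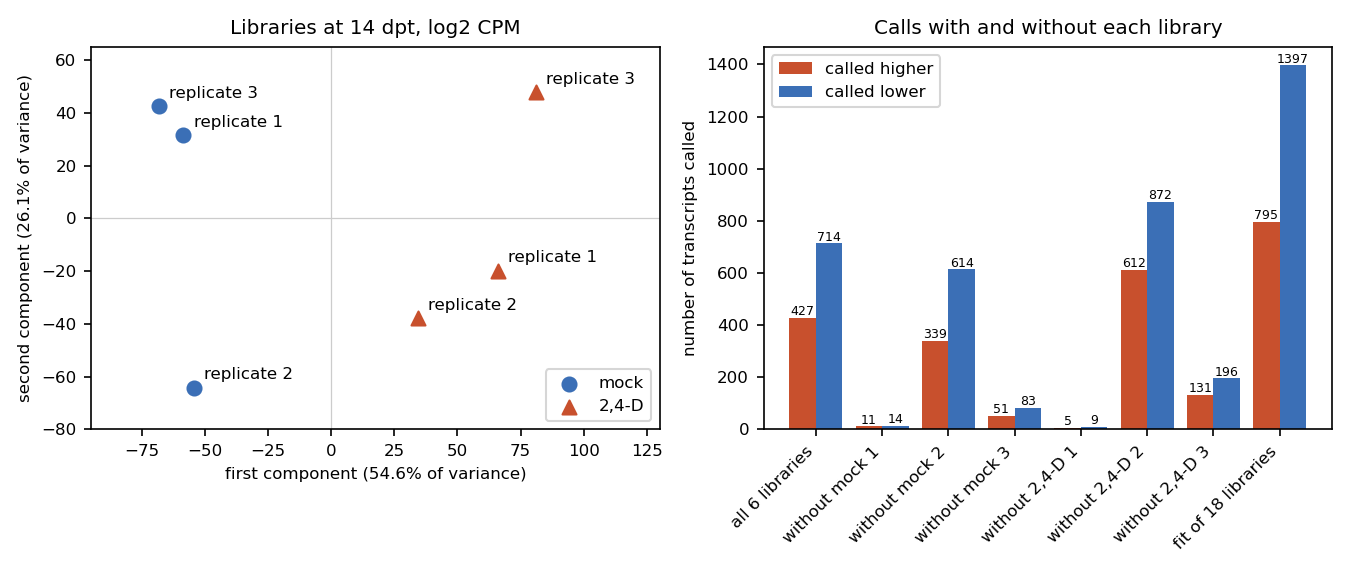
Left, the 6 libraries of 14 dpt on the first and second principal components of log2 CPM (circles, mock; triangles, 2,4-D). Right, bars give the number of transcripts called higher and lower with all 6 libraries (427 and 714), without each library in turn, and for the same contrast in a fit of all 18 libraries (795 and 1397).

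Among the 200 transcripts that led it, the level in mock replicate 2 was above those of mock replicates 1 and 3 and of 2,4-D replicate 3 in 194, and in 178 both 2,4-D replicates 1 and 2 also exceeded those 3 libraries. Their summed level was 2918.6, 44125 and 1906.4 CPM in mock replicates 1, 2 and 3 and 11361, 16956 and 2248.5 CPM in the 2,4-D replicates. None of the 200 was called in the comparison, and 9 of them are in the gene tables of the study. One of the 200 is a jasmonate-zim-domain gene (LOC_Os03g08320.1), a repressor of the jasmonate response that jasmonate itself induces, at 86.7, 806 and 38.3 CPM in mock and 295, 366 and 109 CPM in 2,4-D libraries. Its levels overlapped between treatments, and it did not pass the test (adjusted p = 0.899). It was named after its values were seen. Throughout, values are listed in the order of replicates 1, 2 and 3.

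A transcript was called where edgeR's quasi-likelihood test gave a Benjamini-Hochberg adjusted p under 0.05 and the log2 fold change of 2,4-D over mock was at least 1 in size. By this rule 427 transcripts rose and 714 fell at 14 dpt, which is 3.13% and 5.23% of those tested and 8.36% in either direction. Over the 13642 tested transcripts the median log2 fold change was -0.00495. The levels of the 3 2,4-D libraries did not overlap those of the 3 mock libraries in 35.9% of tested transcripts and in each of the 1141 called. Among the called transcripts 62 rose and 191 fell by at least 3 on the log2 scale. Those that rose held 0.9989, 0.9591 and 1.104% of the counts of the mock libraries and 4.525, 3.559 and 4.638% of those of the 2,4-D libraries. Those that fell held 8.827, 6.977 and 9.604% and 2.185, 2.871 and 2.262%.

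Adjusted p-values of the called transcripts lay between 0.00619 and 0.0499, close to the threshold, and the number of calls moved with single libraries. Without mock replicates 1, 2 and 3 in turn, 11, 339 and 51 transcripts were called higher and 14, 614 and 83 lower. Without 2,4-D replicates 1, 2 and 3 these were 5, 612 and 131 higher and 9, 872 and 196 lower. The same contrast in a fit of all 18 libraries, in which the groups share 1 estimate of the spread, called 795 higher and 1397 lower, and 1103 of the 1141 were among them. On leaving out each library of 14 dpt in turn from that fit, a check added after the data were seen, it called 582 to 1105 higher and 863 to 1380 lower. Limma-voom with TMM factors called 200 and 368, and on library sizes alone it called 265 and 281, a more even split. With a block for the replicate number, edgeR called 6 higher and 0 lower. Every call named below except 6 was lost in at least 1 of the fits without 1 library.

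The 6 that were called in each of these fits, named here after their values were seen, include a GH3 gene and laccase 7, which are described below. Plantacyanin (LOC_Os02g49850.1), a small blue copper protein, was at 47.5, 38.03 and 44.8 CPM in mock and 808, 629.8 and 794 CPM in 2,4-D libraries, a log2 fold change of 4.098 ± 0.199 (SE). A peptide transporter (LOC_Os12g44110.2) was at 15.3, 18.3 and 18.4 and 121, 119 and 157 CPM (2.93 ± 0.19). Of the remaining pair, which have no name in the tables, LOC_Os08g13680.1 rose from 1.85, 1.84 and 1.63 to 40.7, 26.2 and 45.4 CPM and LOC_Os04g01500.1 fell from 64.5, 66.4 and 76.8 to 7.61, 11.1 and 11.8 CPM.

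Members of each gene family were picked by words in the names that the gene tables of the study give, many of which are those of the best match in another species. These tables hold only transcripts that the study called differentially expressed at 7 dpt. Each list therefore leaves out family members without such a change, and the counts below describe the lists, not whole families. Whether the 14 dpt libraries entered the fit of the study is not known, so counts of members in these lists are not independent evidence of a direction. Of the 1991 identifiers 1799 passed the filter at 14 dpt. The calls include 812 of them, and 329 of the 1141 calls lie outside the tables.

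**Figure D2:**
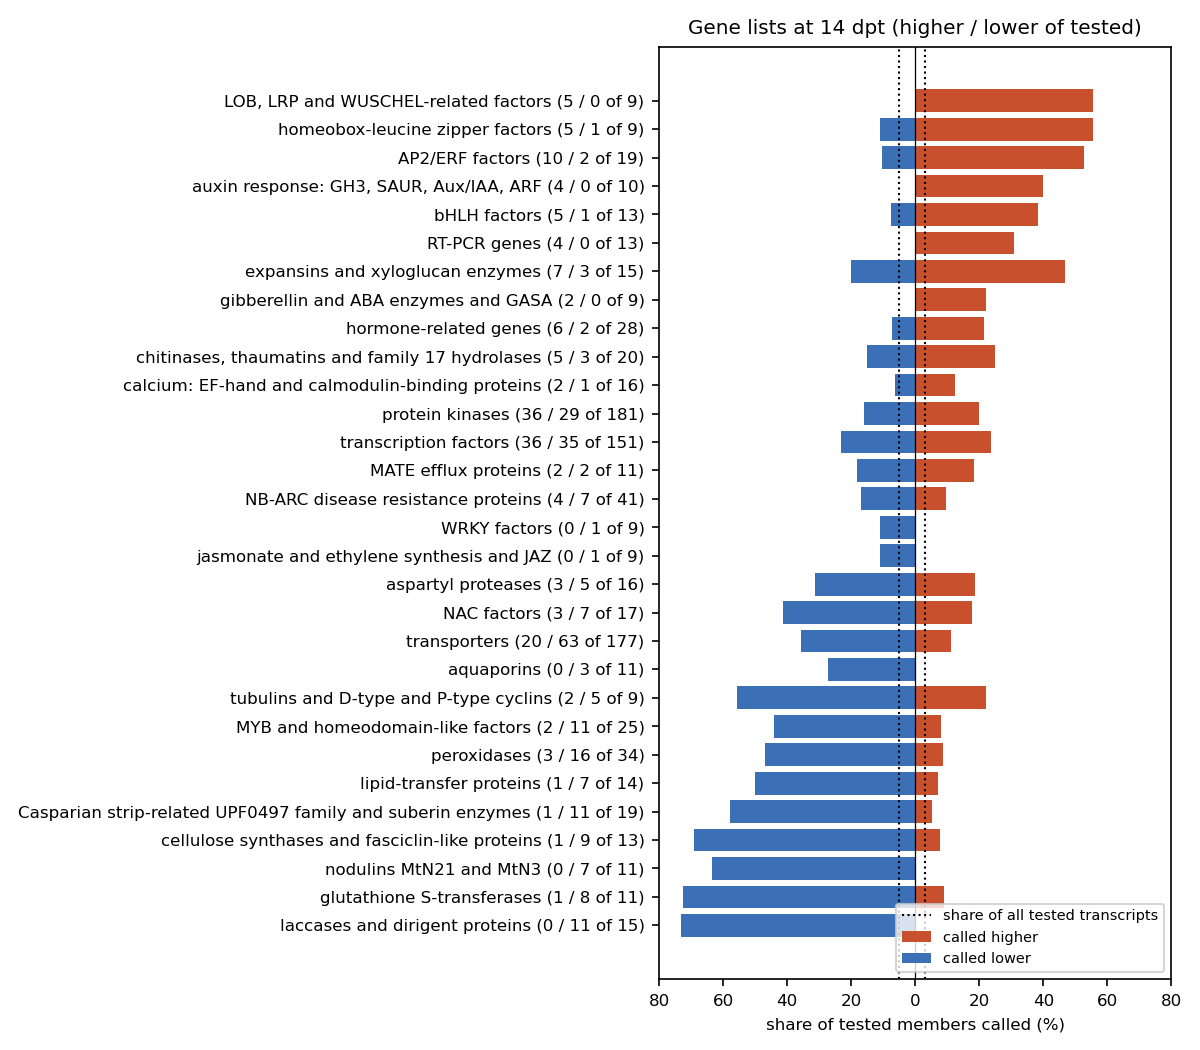
Share of tested members called higher (right) and lower (left) for each list with at least 9 tested members, with the counts in the labels. Dotted lines mark the share of all tested transcripts, 3.13% higher and 5.23% lower. All lists come from the gene tables of the study, of whose 1799 tested identifiers 812 were called in either direction. The lines are therefore not a baseline for members of these tables. Auxin response and developmental factor lists lie toward the top, and lignin, glutathione S-transferase and secondary wall lists toward the bottom.

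Within the list of GH3, SAUR, Aux/IAA and ARF genes the calls went in 1 direction. The AIR12-like auxin-responsive family, given below, was called only lower. Of the 10 tested genes for GH3, SAUR, Aux/IAA and ARF proteins 4 rose and 0 fell, with a median log2 fold change of 1.68. The GH3 gene LOC_Os05g42150.1 stood at 3.39, 2.34 and 4.97 CPM in mock and 207, 146 and 231 CPM in 2,4-D libraries. Its lowest treated library stood far above its highest mock library, with a log2 fold change of 5.77 ± 0.38 (95% interval 4.85 to 6.68, adjusted p = 0.0102). A neighbouring pair of GH3 genes on chromosome 11 also rose, LOC_Os11g32520.1 from 9.87, 3.74 and 9.74 to 32.97, 36.9 and 42.9 CPM (2.27 ± 0.402) and LOC_Os11g32510.1 from 7.71, 2.28 and 6.801 to 21.4, 21.3 and 27.2 CPM (2.06 ± 0.47). Near-identical copies can share reads, and how such reads were counted is not given in the sources used here. Auxin response factor 19 (LOC_Os06g48950.1), an activator of auxin targets, was at 191, 107 and 119.6 CPM in mock and 337, 349.5 and 343 CPM with 2,4-D (1.301 ± 0.25). A further pair of GH3 genes did not pass the test. LOC_Os01g55940.1 was at 83.5, 51.97 and 87.2 and 536, 1053 and 147.4 CPM, separated between the treatments but spread widely within 2,4-D (adjusted p = 0.0537), and LOC_Os07g40290.1 was at 36.5, 117 and 23.9 and 247, 353 and 135 CPM (adjusted p = 0.113). The number called higher in this list was 1, 4 and 1 without mock replicates 1, 2 and 3, 1, 3 and 2 without 2,4-D replicates 1, 2 and 3, and 7 in the fit of 18 libraries.

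Enzymes and carriers of auxin moved both ways. YUCCA 3 (LOC_Os04g03980.1), named after a flavin monooxygenase of auxin synthesis, rose from 53.96, 61.6 and 91.2 to 247, 183 and 255 CPM. Its log2 fold change was 1.73 ± 0.26 (adjusted p = 0.0197). IAA carboxylmethyltransferase 1 (LOC_Os04g56950.1), which converts auxin to its methyl ester, rose from 6.94, 3.99 and 11.6 to 113, 79.3 and 83.7 CPM (3.61 ± 0.43). The PIN-type efflux carrier LOC_Os01g51780.1 stood at 4.01, 1.46 and 1.18 CPM in mock and 29.1, 33.7 and 11.8 CPM in 2,4-D libraries (3.495 ± 0.65, adjusted p = 0.0309). The influx carrier LOC_Os11g06820.1, of the LIKE AUXIN RESISTANT type, fell from 18.5, 10.6 and 22.4 to 2.62, 2.41 and 1.19 CPM (-3.04 ± 0.46). A second gene of that type (LOC_Os03g14080.1) was at 5.396, 2.73 and 6.998 and 14.6, 19.6 and 12.1 CPM and a second efflux carrier (LOC_Os09g32770.1) at 40.5, 19.6 and 50.8 and 8.35, 16.3 and 12.3 CPM, neither of which passed the test. The 4 genes of the AIR12-like auxin-responsive family were all lower in each 2,4-D library than in any mock library. Of these, 2 were called lower, among them LOC_Os09g32470.1 from 22.05, 20.5 and 31.00 to 5.48, 3.51 and 3.95 CPM. Among the 28 tested genes that the study lists as related to hormones 6 rose and 2 fell. The number called higher was 1, 7 and 3 without mock replicates 1, 2 and 3, 1, 6 and 4 without 2,4-D replicates 1, 2 and 3, and 12 in the fit of 18 libraries.

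Genes of other hormones gave few calls. Among 9 tested genes for gibberellin and abscisic acid enzymes and gibberellin-regulated peptides 2 rose. One was a cytochrome P450 of family 707 (LOC_Os08g36860.1), a family that breaks down abscisic acid, at 26.4, 61.2 and 54.1 CPM in mock and 439, 161 and 478 CPM in 2,4-D libraries (2.93 ± 0.53). The second was a gibberellin-regulated gene (LOC_Os03g55290.1) at 15.7, 19.96 and 12.8 and 66.2, 69.1 and 36.4 CPM. Of 8 cytokinin genes 1 fell, the CHASE domain histidine kinase LOC_Os03g50860.1, a receptor type, from 95.8, 98.9 and 104 to 55.9, 47.3 and 33.6 CPM. Another histidine kinase (LOC_Os12g26940.1) was lower in each 2,4-D library, at 173, 134 and 152 and 43.4, 81.1 and 26.5 CPM, but did not pass the test (adjusted p = 0.0627). In the jasmonate and ethylene list 1 of 9 fell, a lipoxygenase (LOC_Os05g23880.1) at 31.2, 31.6 and 37.4 and 10.1, 16.7 and 16.99 CPM.

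The study examined 14 genes by RT-PCR, and 4 of the 13 of them tested here rose at 14 dpt while none fell (median log2 fold change 1.49). Its RT-PCR also covered 14 dpt, where it reports these 4 as expressed. What it reports for the rest is given below. The primers that the study designed for these 4 are given because they define the fragment by which each transcript was assayed. Each is written 5′ to 3′ in lower case, with no part marked, and the chromosome is that of the identifier.
LOC_Os06g40780.1, chromosome 6, forward: caggtggaggtgatgatagattg
LOC_Os06g40780.1, chromosome 6, reverse: ttgatgatggcctccagataac
LOC_Os01g51780.1, chromosome 1, forward: aggcagctctacctcaagga
LOC_Os01g51780.1, chromosome 1, reverse: aaagtagtaagccagcgcca
LOC_Os07g35280.1, chromosome 7, forward: gggagccttgacatctttcttt
LOC_Os07g35280.1, chromosome 7, reverse: caacaatcacgccactcttatc
LOC_Os12g05260.1, chromosome 12, forward: gactggtcgtcgttcttctc
LOC_Os12g05260.1, chromosome 12, reverse: gcataatcctgctgcttcct

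The GRAS transcription factor LOC_Os06g40780.1 was nearly silent in mock libraries, at 1.54, 1.01 and 1.63 CPM, and stood at 29.5, 33.9 and 20.9 CPM with 2,4-D, a log2 fold change of 4.33 ± 0.33 (adjusted p = 0.0107). The PIN-type carrier LOC_Os01g51780.1 is described above. A receptor-like serine/threonine kinase (LOC_Os07g35280.1) rose from 9.56, 18.1 and 6.93 to 63.2, 79.04 and 46.9 CPM (2.45 ± 0.42). For LOC_Os12g05260.1, which the primer table calls a phytosulfokine receptor and another table a precursor of phytosulfokine, a small peptide that promotes cell growth, the levels were 61.3, 116 and 51.6 and 367, 331 and 174 CPM (1.93 ± 0.42). The number of these genes called higher was 0, 5 and 1 without mock replicates 1, 2 and 3, 0, 1 and 2 without 2,4-D replicates 1, 2 and 3, and 7 in the fit of 18 libraries.

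Among the RT-PCR genes that did not pass, several varied more between libraries of one treatment than between treatments. An early nodulin-like protein (LOC_Os08g37660.1) stood at 12.7, 228 and 3.47 CPM in mock and 41.8, 54.4 and 25.5 CPM in 2,4-D libraries. WRKY 70 (LOC_Os03g21710.1), a factor of defense responses in Arabidopsis, was at 18.3, 73.96 and 8.698 and 42.5, 67.7 and 20.8 CPM. In both, mock replicate 2 was the highest of the 6 libraries, and their adjusted p was 0.677 and 0.806. A calcium-dependent protein kinase (LOC_Os08g42750.1) was higher in each 2,4-D library, at 1.156, 21.7 and 1.83 against 145, 102 and 54.9 CPM, with an adjusted p of 0.111. The same held for the ethylene-forming enzyme LOC_Os09g27820.1 at 10.7, 11.4 and 4.05 against 29.5, 33.2 and 24.8 CPM (adjusted p = 0.052) and the GRAS factor LOC_Os11g04570.1 at 2.85, 5.96 and 3.597 against 12.3, 10.6 and 12.01 CPM (adjusted p = 0.0537). The other 4 tested genes had adjusted p-values of 0.415 for a dynamin (LOC_Os09g39960.1), 0.806 for a receptor-like kinase (LOC_Os02g27310.1), 0.76 for a wall-associated kinase (LOC_Os04g51040.1) and 0.279 for a NAC factor (LOC_Os12g03050.1). SHR5 (LOC_Os05g16824.1), a leucine-rich repeat kinase, stayed under the filter at 5.01, 5.83 and 1.83 and 8.84, 6.69 and 5.296 CPM.

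**Figure D3:**
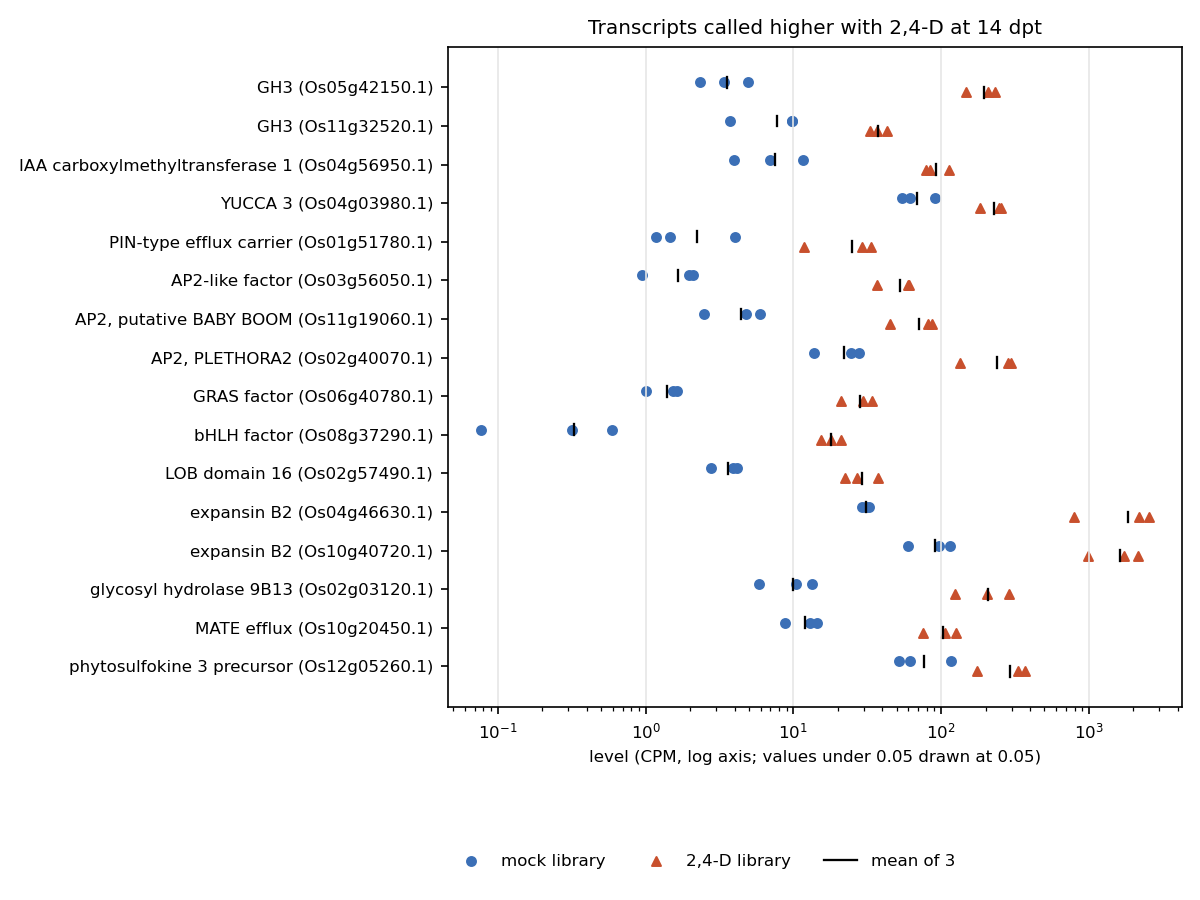
Levels of 16 transcripts called higher at 14 dpt, in CPM on a log axis, with 1 point for each library (circles, mock; triangles, 2,4-D) and black bars at the means of 3. In each row, as in every transcript called higher, the treated libraries lie to the right of the mock libraries. GH3 LOC_Os05g42150.1, for example, is at 207, 146 and 231 against 3.39, 2.34 and 4.97 CPM.

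Of the lists with at least 9 tested members, LOB, LRP and WUSCHEL-related, homeobox-leucine zipper and AP2/ERF factors had the highest shares of members that rose, at 55.6, 55.6 and 52.6%. In the AP2/ERF list 10 of 19 tested members rose and 2 fell, with a median log2 fold change of 2.05. LOC_Os03g56050.1, an AP2-like factor, rose from 2.08, 0.951 and 1.96 CPM in mock to 59.6, 36.6 and 60.6 CPM in 2,4-D libraries (4.97 ± 0.41, adjusted p = 0.0122). LOC_Os05g49010.1, with an AP2 domain, went from 0.154, 0.697 and 0.654 to 15.4, 15.3 and 7.82 CPM (4.63 ± 0.62). LOC_Os11g19060.1, a putative BABY BOOM factor, whose relatives promote embryo formation from vegetative tissue, rose from 5.94, 2.47 and 4.77 to 87.1, 45.3 and 81.01 CPM (4.02 ± 0.44). A second one of this type (LOC_Os04g42570.1) rose from 4.702, 2.41 and 5.62 to 34.3, 19.4 and 31.4 CPM, and LOC_Os03g42240.1, with a B3 domain, from 4.39, 2.92 and 2.49 to 39.03, 29.4 and 50.8 CPM. The gene named PLETHORA2 (LOC_Os02g40070.1), a type of factor that maintains root stem cells in Arabidopsis, rose from 27.98, 13.7 and 24.5 to 283, 134 and 299 CPM (3.43 ± 0.44), and the AP2/ERF factor LOC_Os05g29810.1 from 6.398, 4.82 and 1.96 to 23.7, 32.8 and 31.9 CPM. In each of these, as in every transcript called higher, the lowest 2,4-D library exceeded the highest mock library. The number called higher in the list was 1, 11 and 3 without mock replicates 1, 2 and 3, 0, 9 and 7 without 2,4-D replicates 1, 2 and 3, and 11 in the fit of 18 libraries.

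Factors picked by the names LOB, lateral root primordium and WUSCHEL also gave calls in 1 direction. Of 9 tested LOB, lateral root primordium (LRP) and WUSCHEL-related factors 5 rose and 0 fell (median 1.74). LOB domain 16 (LOC_Os02g57490.1), which acts in lateral root initiation in Arabidopsis, rose from 4.16, 2.79 and 3.92 to 26.8, 22.5 and 37.6 CPM (2.997 ± 0.304), and a second LOB gene (LOC_Os08g44940.1) from 7.71, 6.21 and 5.43 to 31.5, 40.7 and 18.8 CPM. The LRP genes LOC_Os05g32070.1 and LOC_Os01g72490.1 rose from 8.402, 7.16 and 5.23 to 28.3, 18.6 and 34.7 CPM and from 23.05, 13.5 and 8.24 to 56.9, 45.3 and 49.6 CPM. Of these, LOC_Os01g72490.1 was called in none of the fits without 1 library. The study counted fewer lateral roots on 2,4-D-treated than on mock rice at 7 and 14 dpt. How the levels of these factors relate to the number of lateral roots was not tested. A LOB gene under the filter (LOC_Os10g07510.1) was at 2.54, 1.08 and 1.700 and 7.85, 10.3 and 6.72 CPM. The number called higher was 0, 4 and 1 without mock replicates 1, 2 and 3, 0, 4 and 2 without 2,4-D replicates 1, 2 and 3, and 7 in the fit of 18 libraries.

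In the homeobox-leucine zipper list 5 of 9 rose and 1 fell. Homeobox protein 40 (LOC_Os07g39320.1) rose from 9.33, 5.83 and 9.88 to 44.1, 31.95 and 71.3 CPM (2.56 ± 0.38) and homeobox protein 21 (LOC_Os03g10210.1) from 72.5, 78.5 and 82.99 to 283, 221 and 274 CPM (1.73 ± 0.16), with little spread within a treatment. Among the bHLH factors 5 of 13 rose and 1 fell. LOC_Os08g37290.1 went from 0.0771, 0.317 and 0.589 to 20.9, 17.9 and 15.3 CPM (5.72 ± 0.59), with mock levels that rest on few counts. LOC_Os03g07540.1 went from 1.46, 1.14 and 2.42 to 20.8, 11.9 and 19.2 CPM. Both passed the filter only through their 2,4-D libraries. A PLATZ zinc-dependent factor (LOC_Os06g45540.1) rose from 3.16, 1.96 and 3.34 to 65.9, 29.1 and 87.5 CPM (4.43 ± 0.501). The number called higher was 0, 5 and 2 without mock replicates 1, 2 and 3, 0, 5 and 4 without 2,4-D replicates 1, 2 and 3, and 8 in the fit of 18 libraries for the homeobox-leucine zipper list. For the bHLH list it was 1, 5 and 2 without mock replicates 1, 2 and 3, 0, 4 and 2 without 2,4-D replicates 1, 2 and 3, and 6 in the fit of 18 libraries.

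NAC and MYB factors gave more calls lower than higher in this fit. For NAC the direction depended on the method, and for MYB the counts did. Among 17 NAC factors 7 fell and 3 rose, with a positive median of 0.61 although more members fell than rose. Limma-voom called 2 higher and 1 lower with TMM factors and 3 and 0 on library sizes alone. NAC74, the name of both LOC_Os04g43560.1 and LOC_Os10g33760.1, fell from 26.3, 48.9 and 54.5 to 3.600, 3.12 and 0.632 CPM and from 42.6, 25.4 and 71.1 to 2.21, 3.62 and 3.56 CPM (-4.13 ± 0.67 and -3.88 ± 0.46). NAC73 (LOC_Os05g48850.1), a secondary wall factor in Arabidopsis, fell from 24.05, 18.6 and 39.96 to 3.27, 4.38 and 1.19 CPM, and xylem NAC domain 1 (LOC_Os04g35660.1) from 16.7, 11.3 and 18.5 to 2.45, 3.45 and 5.296 CPM. The NAC factor LOC_Os02g15340.1 rose from 13.9, 4.500 and 9.55 to 104, 95.6 and 74.9 CPM (3.298 ± 0.44). Of 25 MYB and homeodomain-like factors 11 fell and 2 rose (median -1.200). For these limma-voom called 1 higher and 4 lower with TMM factors and 2 and 3 on library sizes alone. MYB86 (LOC_Os02g02370.1) fell from 30.6, 13.2 and 35.8 to 1.55, 2.41 and 1.11 CPM (-3.95 ± 0.51), MYB103 (LOC_Os08g05520.1) from 35.8, 12.1 and 23.7 to 1.64, 2.85 and 0.711 CPM and MYB63 (LOC_Os04g50770.1) from 28.1, 17.9 and 38.7 to 2.95, 6.19 and 4.11 CPM. MYB103 and MYB63 are known in Arabidopsis as regulators of secondary wall and lignin genes. The number called lower was 0, 6 and 1 without mock replicates 1, 2 and 3, 0, 8 and 5 without 2,4-D replicates 1, 2 and 3, and 8 in the fit of 18 libraries for NAC, and 0, 11 and 1 without mock replicates 1, 2 and 3, 0, 10 and 3 without 2,4-D replicates 1, 2 and 3, and 18 in the fit of 18 libraries for MYB. Among all transcription factors that the study lists, 36 of 151 rose and 35 fell, against 23 and 12 by limma-voom with TMM factors and 30 and 5 on library sizes alone. Without single libraries 0 to 41 of them were called higher and 0 to 32 lower.

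Most of the listed and tested laccase, dirigent, cellulose synthase and fasciclin-like genes fell. Of 15 tested laccases and dirigent proteins, which couple lignin and lignan precursors, 11 fell and 0 rose (median log2 fold change -2.57). Laccase 7 (LOC_Os12g15920.1) stood at 81.7, 48.6 and 76.2 CPM in mock and 1.15, 1.32 and 0.948 CPM in 2,4-D libraries, a log2 fold change of -5.902 ± 0.31 and the lowest adjusted p of the comparison (0.00619). Laccase 17 is the name of LOC_Os01g62490.1, which fell from 34.3, 37.5 and 77.8 to 1.23, 3.45 and 0.237 CPM, and of LOC_Os05g38390.1, which fell from 13.03, 5.13 and 17.2 to 0.245, 1.096 and 0.237 CPM. A dirigent-like gene (LOC_Os11g07830.1) fell from 91.6, 86.9 and 201 to 4.01, 9.81 and 9.801 CPM (-4.001 ± 0.53). The number called lower was 1, 9 and 3 without mock replicates 1, 2 and 3, 1, 10 and 4 without 2,4-D replicates 1, 2 and 3, and 15 in the fit of 18 libraries.

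Of 13 cellulose synthases and fasciclin-like proteins 9 fell and 1 rose (median -2.71). The cellulose synthase LOC_Os09g25490.1 fell from 257, 151 and 291 to 7.28, 11.8 and 2.13 CPM (-5.03 ± 0.69), cellulose synthase A4 (LOC_Os10g32980.1) from 257, 181 and 338 to 7.85, 15.95 and 3.003 CPM (-4.85 ± 0.67) and LOC_Os01g54620.1 from 435, 255 and 360.1 to 21.2, 28.7 and 9.41 CPM (-4.15 ± 0.48). In all 3 the lowest treated library was replicate 3 and the highest replicate 2. Fasciclin-like arabinogalactan 2 (LOC_Os09g07350.1) fell from 141.1, 93.2 and 179 to 14.7, 14.1 and 5.296 CPM. A glycosyl hydrolase of family 10 (LOC_Os03g10440.1), a family of xylanases, fell from 29.4, 49.9 and 128 to 1.06, 3.51 and 0.395 CPM (-5.33 ± 0.98). The number called lower was 0, 10 and 0 without mock replicates 1, 2 and 3, 0, 8 and 6 without 2,4-D replicates 1, 2 and 3, and 11 in the fit of 18 libraries.

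Enzymes that make and polymerize lignin precursors gave more calls lower than higher. Of 5 tested phenylpropanoid enzymes 3 fell, among them PHE ammonia lyase 1, the entry enzyme of the pathway, as LOC_Os04g43760.1 from 109, 93.6 and 177 to 20.1, 37.9 and 21.7 CPM and as LOC_Os02g41630.2 from 4077, 4329.8 and 5593 to 1895, 2081 and 2442 CPM. The latter was called in none of the fits without 1 library. The third was 4-coumarate:CoA ligase 2 (LOC_Os02g08100.1), from 534, 746 and 846 to 127, 252 and 112 CPM. O-methyltransferase 1 (LOC_Os08g06100.1) fell from 1203, 1239 and 1830.5 to 186, 452 and 274 CPM (-2.23 ± 0.38) and another O-methyltransferase (LOC_Os05g43940.1) from 18.5, 13.3 and 20.6 to 0.164, 1.096 and 0 CPM. Among 34 peroxidases, heme enzymes of the wall, 16 fell and 3 rose (median -2.24). LOC_Os05g04500.1 fell from 45.2, 53.4 and 135 to 0.655, 1.04 and 0.237 CPM (-6.86 ± 0.74), LOC_Os07g48030.1 from 127, 55.8 and 152 to 1.31, 4.06 and 0.237 CPM and LOC_Os04g34630.1 from 98.9, 111 and 173 to 9.41, 10.7 and 7.904 CPM (-3.77 ± 0.29). The number of peroxidases called lower was 2, 16 and 4 without mock replicates 1, 2 and 3, 0, 16 and 7 without 2,4-D replicates 1, 2 and 3, and 22 in the fit of 18 libraries. For the phenylpropanoid enzymes it was 0, 1 and 0 without mock replicates 1, 2 and 3, 0, 3 and 0 without 2,4-D replicates 1, 2 and 3, and 6 in the fit of 18 libraries, in which more members pass the filter.

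**Figure D4:**
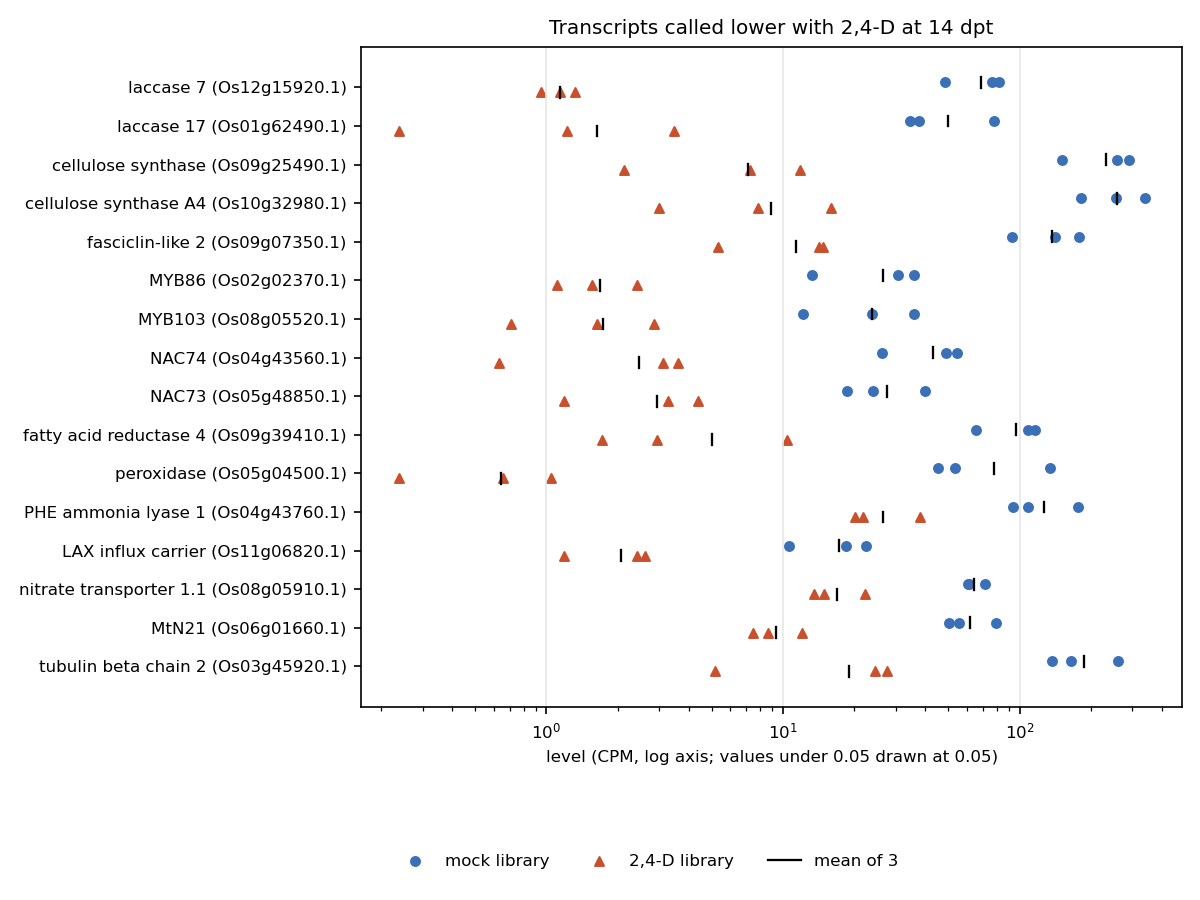
Levels of 16 transcripts called lower at 14 dpt, in CPM on a log axis, with 1 point for each library (circles, mock; triangles, 2,4-D) and black bars at the means of 3. The treated libraries lie to the left of the mock libraries in each row, as in every transcript called lower. Laccase 7, for example, is at 1.15, 1.32 and 0.948 against 81.7, 48.6 and 76.2 CPM.

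Expansins and xyloglucan enzymes, which loosen or remodel the primary wall, rose more often than they fell. Of 15 tested genes 7 rose and 3 fell (median 1.17). Expansin B2, a name shared by 4 of the loci, rose as LOC_Os04g46630.1 from 29.1, 31.2 and 32.6 CPM in mock to 2192, 2534 and 793 CPM in 2,4-D libraries (5.89 ± 0.52, adjusted p = 0.0122). It rose as LOC_Os10g40720.1 from 97.1, 59.3 and 115 to 1731, 2138 and 989.6 CPM (4.16 ± 0.42), as LOC_Os10g40700.1 from 161, 114 and 204 to 1325, 1355 and 1144 CPM (2.996 ± 0.27) and as LOC_Os05g15690.1 from 4.47, 3.42 and 12.6 to 104, 77.8 and 38.9 CPM (3.43 ± 0.65). The pair on chromosome 10 have close identifiers and may share reads. Glycosyl hydrolase 9B13 (LOC_Os02g03120.1), of a family of endoglucanases, rose from 10.48, 5.83 and 13.5 to 205, 288 and 124.6 CPM (4.37 ± 0.47) and a pectin lyase-like gene (LOC_Os01g43490.1) from 6.01, 3.42 and 6.87 to 124.6, 183 and 69.6 CPM (4.53 ± 0.48). The number of expansins and xyloglucan enzymes called higher was 0, 7 and 4 without mock replicates 1, 2 and 3, 0, 7 and 5 without 2,4-D replicates 1, 2 and 3, and 8 in the fit of 18 libraries.

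Tubulins and cyclins were mostly lower, with 5 of 9 that fell and 2 that rose. Tubulin beta chain 2 (LOC_Os03g45920.1) fell from 165, 137 and 261 to 24.5, 27.6 and 5.14 CPM (-3.29 ± 0.66) and the beta-6 tubulins LOC_Os01g59150.1 and LOC_Os01g18050.1 from 64.1, 59.1 and 96.5 to 15.4, 9.04 and 4.66 CPM and from 531, 372 and 654 to 117, 161 and 89.8 CPM. Cyclin D1;1 (LOC_Os09g21450.1), of the cyclins that act on entry into the cell cycle, fell from 20.7, 17.4 and 20.2 to 6.38, 5.97 and 4.43 CPM (-1.796 ± 0.24). The number called lower was 0, 5 and 1 without mock replicates 1, 2 and 3, 0, 5 and 4 without 2,4-D replicates 1, 2 and 3, and 6 in the fit of 18 libraries.

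Genes of the root barriers fell more often than they rose. The list of UPF0497 proteins, the family of the Casparian strip membrane proteins, and of suberin enzymes had 11 of 19 that fell and 1 that rose (median -2.51). Fatty acid reductase 4 (LOC_Os09g39410.1), which makes alcohols for suberin, fell from 65.6, 108 and 116 to 1.72, 10.4 and 2.92 CPM (-4.25 ± 0.74) and 3-ketoacyl-CoA synthase 6 (LOC_Os03g12030.1), of fatty acid elongation, from 26.1, 50.3 and 103 to 1.800, 7.95 and 2.53 CPM (-3.85 ± 0.79). The UPF0497 genes LOC_Os04g58760.1 and LOC_Os05g15630.1 fell from 39.8, 50.4 and 103 to 5.65, 10.4 and 4.51 CPM and from 65.98, 129 and 179 to 7.94, 26.8 and 10.7 CPM. In each of these 4 the treated library nearest to mock was replicate 2, and the number called lower was 0, 3 and 0 without mock replicates 1, 2 and 3, 0, 13 and 1 without 2,4-D replicates 1, 2 and 3, and 18 in the fit of 18 libraries. Of 14 lipid-transfer proteins 7 fell and 1 rose, with LOC_Os05g06780.1 from 336, 243 and 371 to 10.47, 24.5 and 19.4 CPM (-4.13 ± 0.38). For these the number called lower was 0, 8 and 1 without mock replicates 1, 2 and 3, 1, 7 and 2 without 2,4-D replicates 1, 2 and 3, and 13 in the fit of 18 libraries.

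A GDSL lipase (LOC_Os01g11730.1) had the largest fall among the called transcripts with a name in the tables, from 181, 74.5 and 229.6 to 0.655, 2.302 and 0.158 CPM (-7.203 ± 0.99). Of 11 glutathione S-transferases, enzymes of detoxification, 8 fell and 1 rose. PHI 9 (LOC_Os10g39740.1) fell from 24.97, 14.8 and 25.6 to 0.818, 1.81 and 0.869 CPM (-4.19 ± 0.45), TAU 18 (LOC_Os10g38580.1) from 88.1, 85.2 and 138 to 16.4, 16.1 and 5.22 CPM and LOC_Os01g55830.1 from 4259, 3556 and 4163 to 513, 1144 and 329 CPM. The number called lower was 0, 7 and 3 without mock replicates 1, 2 and 3, 0, 7 and 5 without 2,4-D replicates 1, 2 and 3, and 9 in the fit of 18 libraries. Of 7 small heat shock proteins and chaperones 4 fell, heat shock protein 21 from 24.7, 23.9 and 23.5 to 1.15, 2.41 and 1.58 CPM as LOC_Os10g07210.1 and from 15.1, 9.51 and 14.5 to 0.736, 1.32 and 1.26 CPM as its neighbour LOC_Os10g07200.1. The number of these called lower was 0, 4 and 1 without mock replicates 1, 2 and 3, 0, 4 and 3 without 2,4-D replicates 1, 2 and 3, and 4 in the fit of 18 libraries.

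Transporters fell more often than they rose, with 63 of 177 tested members of the study's transporter table called lower and 20 higher (median -1.14). The number called lower was 0, 52 and 11 without mock replicates 1, 2 and 3, 1, 63 and 21 without 2,4-D replicates 1, 2 and 3, and 92 in the fit of 18 libraries. Of 11 aquaporins 3 fell and none rose. NIP2-2 (LOC_Os06g12310.1), of a type that carries silicic acid in rice, fell from 68.6, 38.5 and 80.6 to 5.07, 6.19 and 0.474 CPM (-3.99 ± 0.87), and its relative NIP2-1 (LOC_Os02g51110.1) was at 1523, 827 and 1766 and 198, 609 and 462 CPM (adjusted p = 0.0809). Of 11 MtN21 and MtN3 genes, named after nodulins of Medicago and known as amino acid or auxin carriers and as sugar carriers, 7 fell and none rose. LOC_Os01g36590.1 fell from 21.4, 31.1 and 20.8 to 3.19, 2.85 and 1.42 CPM, LOC_Os06g01660.1 from 50.1, 55.5 and 79.5 to 7.45, 8.66 and 12.01 CPM (-2.72 ± 0.29) and the MtN3 gene LOC_Os01g36070.1 from 58.4, 50.00 and 67.1 to 22.6, 28.1 and 29.2 CPM. For these the number called lower was 0, 7 and 2 without mock replicates 1, 2 and 3, 0, 5 and 3 without 2,4-D replicates 1, 2 and 3, and 11 in the fit of 18 libraries.

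Nitrogen carriers moved both ways. Nitrate transporter 1.1 (LOC_Os08g05910.1) fell from 71.1, 60.8 and 61.2 to 13.6, 14.96 and 22.1 CPM (-1.93 ± 0.24), and LOC_Os02g38230.1, listed as a nitrate transmembrane transporter, rose from 59.8, 93.8 and 42.97 to 265, 311 and 420 CPM (2.34 ± 0.35). The peptide transporter LOC_Os05g27304.1 fell from 16.3, 21.5 and 50.3 to 0.491, 1.53 and 0.711 CPM (-4.96 ± 0.67) and the amino acid transporter LOC_Os06g12320.1 from 14.8, 12.99 and 37.9 to 0.164, 1.32 and 0.237 CPM (-5.15 ± 0.902). Among MATE efflux proteins, which export organic compounds, 2 of 11 rose and 2 fell. LOC_Os10g20450.1 rose from 12.9, 8.75 and 14.5 to 106, 75.6 and 126 CPM (3.096 ± 0.295), while LOC_Os08g43654.1 fell from 11.8, 16.2 and 36.8 to 0.245, 1.59 and 0.316 CPM (-4.82 ± 0.87). The ABC transporter LOC_Os08g30780.1 rose from 8.402, 6.65 and 11.4 to 60.4, 31.8 and 54.1 CPM (2.46 ± 0.34) and LOC_Os05g02890.1, of the ABC-2 type, fell from 53.7, 61.2 and 80.1 to 9.08, 15.6 and 15.5 CPM.

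Of 181 tested protein kinases 36 rose and 29 fell. The 4 STRUBBELIG kinases that the study names, LOC_Os02g04430.1, LOC_Os05g25540.1, LOC_Os06g42800.1 and LOC_Os10g25090.1, fell, the first from 32.8, 50.9 and 50.9 to 2.95, 9.76 and 5.06 CPM (-2.91 ± 0.48). STRUBBELIG kinases act in tissue patterning in Arabidopsis. Of the 4 CRINKLY4-related kinases that it names, LOC_Os04g35890.1 and LOC_Os11g11490.1 fell, while LOC_Os11g44500.1 was at 12.02, 12.8 and 9.48 and 27.7, 41.1 and 14.1 CPM and LOC_Os11g44430.1 at 58.7, 444 and 47.9 and 247, 455 and 82.8 CPM, and neither of these passed the test (adjusted p = 0.0989 and 0.782). The kinases LOC_Os03g44020.1 and LOC_Os11g05320.1, of the group that includes relatives of PKA, PKG and PKC, rose from 5.86, 5.26 and 5.04 to 29.5, 21.3 and 16.8 CPM and from 4.55, 6.46 and 5.49 to 24.4, 25.5 and 13.9 CPM. Of the CLAVATA1-like receptors, LOC_Os07g04190.1 rose from 45.3, 23.1 and 42.2 to 189, 95.2 and 209.5 CPM and LOC_Os06g50340.1 fell from 69.1, 51.4 and 53.6 to 16.7, 26.5 and 18.3 CPM. The signaling peptide gene CLAVATA3/ESR-related 12 (LOC_Os02g21890.1) rose from 9.56, 17.9 and 13.6 to 53.8, 63.6 and 53.7 CPM (2.06 ± 0.27). A phytosulfokine receptor (LOC_Os07g01710.1) rose from 13.2, 8.75 and 13.8 to 80.3, 43.5 and 95.4 CPM (2.62 ± 0.36), whereas phytosulfokine receptor 1 (LOC_Os04g57630.1) was at 84.1, 28.8 and 49.96 and 88.7, 110.3 and 98.7 CPM (adjusted p = 0.198). The number of kinases called was 1, 28 and 2 without mock replicates 1, 2 and 3, 0, 30 and 16 without 2,4-D replicates 1, 2 and 3, and 50 in the fit of 18 libraries for higher. For lower it was 0, 26 and 1 without mock replicates 1, 2 and 3, 0, 31 and 5 without 2,4-D replicates 1, 2 and 3, and 49 in the fit of 18 libraries.

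Defense genes were divided. Among chitinases, thaumatins and family 17 hydrolases 5 of 20 rose and 3 fell. Chitinase A rose as LOC_Os11g47580.1 from 1.696, 2.03 and 1.700 to 19.4, 14.6 and 34.5 CPM (3.65 ± 0.402) and as LOC_Os04g27980.1 from 8.402, 55.01 and 31.8 to 369, 208 and 397 CPM, and a thaumatin (LOC_Os01g62260.1) from 70.5, 43.1 and 78.1 to 528, 295 and 805 CPM. A family 17 hydrolase (LOC_Os07g35520.1) fell from 19.5, 19.9 and 22.04 to 2.13, 2.69 and 2.05 CPM (-3.15 ± 0.24). Of 41 NB-ARC disease resistance genes, a family of intracellular immune receptors with many near copies, 7 fell and 4 rose, with LOC_Os04g08390.1 from 13.5, 14.5 and 12.6 to 0.491, 0.877 and 0.948 CPM (-4.11 ± 0.38). Of 9 WRKY factors 1 fell and none rose, WRKY 24 (LOC_Os01g53260.1) from 51.3, 63.3 and 80.6 to 21.03, 33.2 and 24.4 CPM. The number of chitinases, thaumatins and family 17 hydrolases called higher was 0, 6 and 1 without mock replicates 1, 2 and 3, 0, 4 and 4 without 2,4-D replicates 1, 2 and 3, and 8 in the fit of 18 libraries.

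Genes of the common symbiosis pathway, through which rhizobial and fungal signals are read, gave no call. OsDMI3 (LOC_Os05g41090.1), its calcium-dependent kinase, was at 56.7, 47.7 and 30.1 CPM in mock and 33.5, 57.99 and 24.2 CPM in 2,4-D libraries, which overlap (-0.22 ± 0.39, 95% interval -1.17 to 0.74). OsIPD3 (LOC_Os06g02520.1), the partner of that kinase, was lower in each 2,4-D library, at 46.2, 21.5 and 16.3 against 4.75, 9.32 and 5.77 CPM, just short of the threshold (-2.08 ± 0.49, adjusted p = 0.0512). OsPOLLUX (LOC_Os01g64980.1), an ion channel of the nucleus, stayed under the filter at 1.156, 1.33 and 1.31 and 0.409, 0.767 and 2.05 CPM. The first transcript model of OsCASTOR (LOC_Os03g62650.1), a related channel, had 0 counts in the 6 libraries, which allows 0.166 to 0.244 CPM at 3 counts per library and says nothing of the other models of the locus. Over the 73 genes that the text of the study names by identifier, 63 were tested, of which 20 rose, 14 fell and 29 did not pass.

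Some of the largest changes lay in transcripts with no name in the tables. LOC_Os10g31490.1 went from 0.0771, 0.254 and 1.504 CPM in mock to 108, 77.9 and 121 CPM in 2,4-D libraries (7.34 ± 0.93), LOC_Os02g37360.1 from 1.39, 0.1901 and 0.785 to 68.7, 151 and 274 CPM (7.72 ± 0.898) and LOC_Os01g46984.1 from 0.771, 0.127 and 0 to 27.8, 28.9 and 35.7 CPM. LOC_Os02g37380.1 was at 0.0771, 0 and 0.0654 and 24.95, 5.37 and 33.4 CPM. Its mock libraries hold 2 counts in all, so no fold is given. All of these risers passed the filter only through their 2,4-D libraries, and their mock levels rest on low counts. In the other direction LOC_Os03g19420.2 and LOC_Os03g19427.1 fell from 2346, 561 and 361 to 3.11, 4.17 and 9.96 CPM and from 1592, 419 and 323 to 2.21, 2.19 and 5.85 CPM (-7.57 ± 1.06 and -7.83 ± 0.97), high and low in the same libraries. LOC_Os01g45914.1 was at 166, 8.302 and 11.3 and 0.164, 0.164 and 0.237 CPM, with mock replicate 1 far above the other mock libraries. LOC_Os01g25030.1 was at 44.01, 13.1 and 35.5 and 0.245, 0.0548 and 0 CPM. Among the called transcripts with the most reads, ketol-acid reductoisomerase (LOC_Os01g46380.1), of branched-chain amino acid synthesis, rose from 621, 891 and 906 to 3077, 1718 and 3698 CPM (1.81 ± 0.34), and the unnamed LOC_Os12g42876.1 fell from 3334, 2809 and 2622 to 1061, 1102 and 1072 CPM (-1.44 ± 0.19).

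As a check of the labelled tissue, the marker of shoot tissue in the tables, a PsbP photosystem II gene (LOC_Os01g70820.1) stood at 6.398, 22.2 and 6.801 CPM in mock and 27.3, 26.1 and 9.801 CPM in 2,4-D libraries and did not pass the test (adjusted p = 0.438). It was not absent, and it was higher in mock replicate 2 and 2,4-D replicates 1 and 2 than in the other 3 libraries. Its part in the results was not tested. Markers of xylem and of the root barriers, by contrast, were present in mock libraries at levels given above.

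The last comparison asked whether the 2,4-D effect at 14 dpt differed from that at the earlier times, which share no library with 14 dpt. At 7 dpt the same test on its own 6 libraries called 693 transcripts higher and 835 lower. Of the 427 higher at 14 dpt 231 were also called higher at 7 dpt, which is 54.1% of the former and 33.3% of the latter. Of the 714 lower 355 were shared, 49.7% and 42.5%, and none of the calls was called in the opposite direction at 7 dpt. Among those tested at both times 392 of 398 higher and 702 of 705 lower transcripts had the same sign at 7 dpt. The same-sign share of all transcripts is not given here. Across all 15149 transcripts of the fit of 18 libraries, the called ones included, the effects at 14 and 7 dpt correlated at 0.725. In the fit of 18 libraries the median log2 fold change of the transcripts higher at 14 dpt was 1.89 at 14 dpt and 1.51 at 7 dpt, and of those lower -2.18 and -1.83. As an interaction, 14 against 7 dpt, 0 of 15149 transcripts were called by edgeR (0%), with 853 (5.63%) at an unadjusted p under 0.05. DESeq2 called 2 with a more positive and 2 with a more negative effect at 14 dpt, and edgeR without mock replicate 3 of 14 dpt called 4 more negative ones. A count of 0 does not show that the times act alike, since the spread within groups limits the test.

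Against 1 dpt the effect differed for more transcripts. At 1 dpt 707 transcripts were called higher and 1167 lower on their own libraries. Shared with 14 dpt were 120 higher (28.1% of the calls of 14 dpt and 17% of those of 1 dpt) and 408 lower (57.1% and 35%), while 4 transcripts higher at 14 dpt were called lower at 1 dpt and 2 lower ones were called higher. Not tested at 1 dpt were 119 of the higher and 27 of the lower transcripts, against 29 and 9 at 7 dpt. Among those tested at both 14 and 1 dpt, 267 of 308 higher and 652 of 687 lower transcripts had the same sign. The interaction called 225 of 15149 transcripts (1.49%), 139 with a more positive effect at 14 dpt and 86 with a more negative one. The 1 dpt libraries were sequenced in another batch than those of 7 and 14 dpt, and although each effect lies within a batch, time and batch cannot be told apart in this difference. These counts were 19 and 12 without 2,4-D replicate 1 of 14 dpt, 510 and 293 without 2,4-D replicate 2 of 14 dpt, 19 to 357 and 11 to 374 without single libraries of 1 dpt, and 8 and 6 in a fit of the 12 libraries of these times.

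The transcripts below were called for this difference unless stated. The BABY BOOM factor LOC_Os04g42570.1 stood at 9.37 ± 4.82 CPM in mock and 3.39 ± 0.684 CPM in 2,4-D roots at 1 dpt, and at 4.11 ± 1.44 and 28.3 ± 7.61 CPM at 14 dpt (mean ± SD, n = 3 libraries each). The mean was thus lower with 2,4-D at 1 dpt and higher at 14 dpt, and the effect at 14 dpt minus that at 1 dpt was 4.25 ± 0.64 on the log2 scale (adjusted p = 0.0118). For LOC_Os05g49010.1, with an AP2 domain, the difference was 6.33 ± 0.91 (adjusted p = 0.00953), and for the AP2-like LOC_Os03g56050.1 it was 3.94 ± 0.67. YUCCA 3 (LOC_Os04g03980.1) went from 58.1 ± 14.9 in mock to 22.6 ± 8.52 CPM in 2,4-D roots at 1 dpt, and from 67.2 ± 16.8 to 228 ± 38.1 CPM at 14 dpt (3.13 ± 0.52, adjusted p = 0.0163), so that its mean too was lower with 2,4-D at the first time and higher at the last. The expansin B2 genes LOC_Os10g40720.1 and LOC_Os10g40700.1 had differences of 2.79 ± 0.605 and 2.25 ± 0.51. Going the other way, the PIN-type carrier LOC_Os01g51780.1 was at 1.32 ± 0.3500 and 158 ± 60.8 CPM at 1 dpt, against 2.17 ± 1.505 and 24.8 ± 11.6 CPM at 14 dpt, and its effect was smaller at 14 dpt (-3.35 ± 0.69, adjusted p = 0.0331). For the GH3 gene LOC_Os05g42150.1 the difference was 0.21 ± 0.49 and did not pass the test. These levels are scaled over the 18 libraries and differ slightly from those of the 6-library fit.

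**Figure D5:**
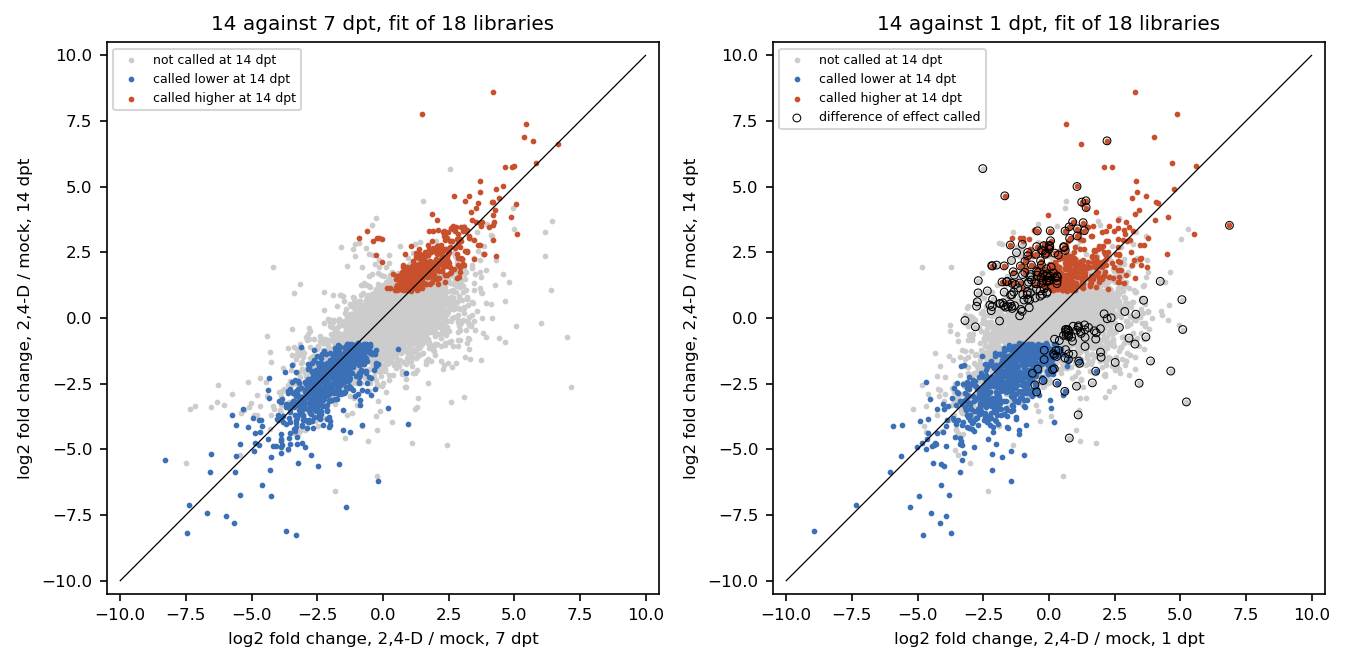
Log2 fold change of 2,4-D over mock at 14 dpt (vertical axis) against that at 7 dpt (left) and 1 dpt (right) in the fit of 18 libraries, for the 13642 transcripts tested at 14 dpt. Colors mark the calls at 14 dpt, the line marks equal effects, and circles mark 212 transcripts whose effect differed between 14 and 1 dpt.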

How the data were processed

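Messenger RNA of 18 root samples was sequenced as paired-end reads from a stranded kit, and the 6 samples of 14 dpt (3 2,4-D, 3 mock) were used here, with the other 12 in the fits across times. Per the study's methods, the authors ran RSeQC on the reads, mapped them by Rsubread against release 7 of the MSU rice annotation and deposited raw counts per transcript from featureCounts, whole numbers that are not normalized. No source used here gives the strand setting or says how a read that fits several isoforms or loci was counted. Rows of loci with several transcript models (16809) held 5.58% of the counts, and 707 rows without a locus name held no counts. No column was left without a sample (0). Replicates of a group differed by more than sampling noise (chi-square per degree of freedom 67.9 to 182).

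The test took in transcripts that reached 10 CPM in at least 2 libraries, and was run with edgeR 4.0.16 (robust quasi-likelihood, TMM factors) in R 4.3.3, with Benjamini-Hochberg adjustment. Printed CPM are scaled by TMM factors, levels of different genes are not corrected for length, and a prior count of 2 was used for log2 CPM. Limma 3.58.1 and DESeq2 1.42.0 were alternatives. The test was also run on simulated data. Named transcripts were taken, not in full, from those that a rule gives: the RT-PCR genes, those named in the study's text, the 12 largest changes per direction among named and the 5 largest among unnamed ones, the 6 most counted per direction, up to 4 per gene list and 6 per direction of each interaction. Markers and the transcripts said to be named after their values were seen come in addition. Which of them the text prints was chosen with their values in view. Members and lists were chosen with earlier results of these data known. Labels come from the sample titles, names and primers from the study's gene tables. With 3 libraries against 3 an exact permutation test cannot go below p = 0.1. The study describes the 3 replicates of each group as biological replicates. Plots used matplotlib 3.10.9 and tallies pandas 2.3.3 in Python 3.11.15.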

Additional observations from a re-analysis of the deposited data

Results flagged for a closer look

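For the following transcripts the 2,4-D effect differed between 14 and 1 dpt by the interaction test of edgeR's quasi-likelihood fit of 18 libraries. Values are the effect at 14 dpt minus that at 1 dpt on the log2 scale. No explanation was tested, and the sequencing batch and time cannot be told apart.

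The effect was more positive at 14 dpt for LOC_Os01g10110.1 (8.21), LOC_Os05g49010.1 (6.33), LOC_Os01g46984.1 (4.53), LOC_Os04g42570.1 (4.25), LOC_Os07g05024.1 (4.17), LOC_Os03g06610.1 (4.13), and for LOC_Os08g13680.1 (3.16). It was also more positive for the AP2-like LOC_Os03g56050.1 (3.94), the ABC transporter LOC_Os08g30780.1 (3.31), YUCCA 3 LOC_Os04g03980.1 (3.13), the PLATZ factor LOC_Os06g45540.1 (3.05), the P450 of family 707 LOC_Os08g36860.1 (2.88), expansin B2 LOC_Os10g40720.1 (2.79) and LOC_Os10g40700.1 (2.25), IAA carboxylmethyltransferase 1 LOC_Os04g56950.1 (2.76), PLETHORA2 LOC_Os02g40070.1 (2.70), the B3 factor LOC_Os03g42240.1 (2.33) and the bHLH factor LOC_Os03g07540.1 (2.31). Of these, LOC_Os01g10110.1 and LOC_Os07g05024.1 did not pass the test at 14 dpt itself.

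The effect was more negative at 14 dpt for LOC_Os07g34260.1 (-8.43), LOC_Os11g45990.1 (-6.66), LOC_Os07g03580.1 (-5.92), LOC_Os08g24300.1 (-5.53), LOC_Os03g09910.1 (-5.50), LOC_Os01g09540.1 (-5.35) and the PIN-type carrier LOC_Os01g51780.1 (-3.35). The first 6, which have no name in the tables, did not pass the test at 14 dpt, where their mock libraries differ widely, as for LOC_Os07g34260.1 at 34.8, 36.9 and 0.262 CPM against 0.982, 5.59 and 1.11 CPM with 2,4-D.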

How the results depend on the processing

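Values are given as higher and lower calls at 14 dpt, 427 and 714 in the report. They were 647 and 1165 in a fit of 12 libraries, 795 and 1397 in the fit of 18, 652 and 1096 when the filter was 1 CPM, 657 and 1151 under filterByExpr, 817 and 1289 unfiltered and 760 and 1251 by DESeq2. They were 200 and 368 by limma-voom with TMM factors, 265 and 281 by limma-voom on library sizes alone, and 1 and 1 at an adjusted p under 0.01. Without single libraries they ranged from 5 to 612 and from 9 to 872. Chosen after seeing the data, the fit of 18 without mock replicates 1, 2 and 3 called 797, 930 and 733 higher and 1192, 1319 and 1120 lower, and without 2,4-D replicates 1 and 2 it called 656 and 1105 higher, with 1380 lower without the latter. RLE factors, library sizes alone in edgeR, no fold threshold and, added later, leaving out both libraries numbered 2 kept the counts within 1.5 times.

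The deviations of same-numbered libraries from their group means correlated at -0.268, 0.42 and 0.314 for numbers 1, 2 and 3. Mock replicates 2 and 3 correlated best with the 2,4-D replicate of the same number, and mock replicate 1 with 2,4-D replicate 3 (0.395). No source used here says whether same-numbered libraries were paired. With 3 libraries per group these correlations cannot decide it. With the replicate block in edgeR 6 transcripts were called higher and 0 lower at 14 dpt (1765 higher and 2036 lower at an unadjusted p under 0.05), and 68 and 33 for the difference of the effect between 14 and 1 dpt.

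That difference gave 139 more positive and 86 more negative calls, against 8 and 6 with 12 libraries, 478 and 460 by DESeq2, 19 and 24 by limma-voom, and 19 to 510 and 11 to 374 without single libraries. Between 14 and 7 dpt DESeq2 called 2 and 2 and the fits without single libraries 0 and 0 to 4. The causes were not tested.

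Among named transcripts the log2 fold change turned sign only for uncalled ones, by the settings below, with the end of the range without single libraries given first where it kept the sign. LOC_Os02g27310.1 was at 0.53 (without 2,4-D replicate 1) and, with the sign turned, -0.13 (the fit of 18 without mock replicate 3), -0.16 (without mock replicate 3). LOC_Os03g08320.1 was at -0.81 (without mock replicate 3) and, with the sign turned, 0.056 (the fit of 18 without 2,4-D replicate 3), 2.10 (the fit of 18 without mock replicate 2), 0.81 (limma-voom on library sizes alone), 0.70 (limma-voom with TMM), 0.77 (replicate block), 0.10 (without 2,4-D replicate 3), 1.71 (without both libraries numbered 2), 2.04 (without mock replicate 2). LOC_Os03g21710.1 was at 1.69 (without mock replicate 2) and, with the sign turned, -0.044 (the fit of 18 without 2,4-D replicate 2), -0.11 (the fit of 18 without mock replicate 3), -0.15 (without 2,4-D replicate 2), -0.094 (without mock replicate 3). LOC_Os04g51040.1 was at 0.58 (limma-voom on library sizes alone), 0.52 (limma-voom with TMM), 0.078 (replicate block). LOC_Os05g41090.1 was at -0.65 (without 2,4-D replicate 2) and, with the sign turned, 0.055 (the fit of 18 without 2,4-D replicate 3), 0.055 (the fit of 18 without mock replicate 1), 0.038 (without 2,4-D replicate 3). LOC_Os08g24300.1 was at 0.027 (the fit of 18 without mock replicate 1), 0.54 (limma-voom on library sizes alone), 0.48 (limma-voom with TMM), 0.071 (replicate block). LOC_Os08g37660.1 was at -1.58 (without mock replicate 3) and, with the sign turned, 2.39 (the fit of 18 without mock replicate 2), 0.89 (limma-voom on library sizes alone), 0.82 (limma-voom with TMM), 0.97 (replicate block), 2.08 (without both libraries numbered 2), 2.33 (without mock replicate 2). LOC_Os11g44430.1 was at 2.29 (without mock replicate 2) and, with the sign turned, -0.12 (the fit of 18 without 2,4-D replicate 2), -0.23 (without 2,4-D replicate 2). Counts per library limit low transcripts, since 3 counts stand for up to 0.244 CPM.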

Other observations

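Called transcripts were spread over the 12 chromosomes, with 7.39 to 9.3% of the tested transcripts of each called. Runs of 3 or more tested neighbouring loci called in the same direction, listed here as values with no explanation, included 4 hydroxyproline-rich and unnamed loci on chromosome 7, 3 neighbouring glutathione S-transferases on chromosome 3 and 4 loci on chromosome 11 that contain dirigent-like genes, which fell. On chromosome 9 a run of 4 loci rose, and on chromosome 11 the pair of GH3 genes LOC_Os11g32510.1 and LOC_Os11g32520.1 rose with an unnamed neighbour. Near copies can share reads, and the part of this in these runs was not tested.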
